A study of Homo sapiens with 4 samples.

Results

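The CD1 genes CD1A, CD1B, CD1C, CD1D and CD1E were read out in OCI-AML3, a cell line grown from human acute myeloid leukaemia with mutant, cytoplasmic NPM1 (NPM1c+). They are 5 of the 67062 rows of the deposited count table, matched by Ensembl identifier, and 3 of the 5 (CD1D, CD1A and CD1C) were expressed at a level that could be tested among 15918 genes. The cells had been transduced with the retroviral vector pMSCV-PIG in one of 2 forms, PIG-LONA, in which an RNA polymerase II promoter drives the lncRNA LONA, and PIG-EMPTY, which lacks it, and both groups therefore carried puromycin resistance and GFP and were sorted on GFP. Each group had 2 libraries from separate transductions of this 1 line, so differences speak of OCI-AML3 under a vector-driven transcript. The level of LONA itself was not analysed here. Library totals ran from 29819572 to 38358442 counts. The genes were chosen by family membership after fold changes of these same libraries were known. Their differences between the groups are therefore given as a description, without a p-value, and support nothing else.

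CD1 proteins are antigen-presenting molecules built like MHC class I, with a heavy chain that pairs with beta-2 microglobulin, but their grooves hold lipids in place of peptides. CD1A, CD1B and CD1C form group 1, which presents lipids to diverse T cells and is best known from dendritic cells, Langerhans cells, B cells and cortical thymocytes. CD1D is group 2 and presents glycolipids to natural killer T cells, and monocytes and other myeloid cells carry it widely. CD1E stays inside the cell, where it helps to load lipids onto the other CD1 molecules.

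All 5 genes lie in 1 cluster on chromosome 1, from 158179947 to 158357553 (GRCh38), a stretch of 177.6 kb. In order along the chromosome these are CD1D (158179947 to 158184896), CD1A (158254137 to 158258269), CD1C (158289786 to 158293630), CD1B (158327951 to 158331531) and CD1E (158353696 to 158357553). CD1B is read from the minus strand and the other 4 from the plus strand. No other annotated gene overlaps any of them in GENCODE release 29, so no antisense partner shares their exons there.

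The upstream sequences of the 3 expressed genes are shown because CD1A and CD1C differed between the groups by similar amounts; which start the line uses was not measured. They were taken from RefSeq (GRCh38.p14), plus strand, and end just before the annotated start or, for CD1C, before the first base that GENCODE counts as exon. Capitals mark matches to GAGGAA, the core of sites for PU.1 and related ETS factors, and to AGGTCA, the hexamer that nuclear receptors such as retinoic acid receptors bind, each searched on both strands.
CD1D, chr1:158179697-158179946: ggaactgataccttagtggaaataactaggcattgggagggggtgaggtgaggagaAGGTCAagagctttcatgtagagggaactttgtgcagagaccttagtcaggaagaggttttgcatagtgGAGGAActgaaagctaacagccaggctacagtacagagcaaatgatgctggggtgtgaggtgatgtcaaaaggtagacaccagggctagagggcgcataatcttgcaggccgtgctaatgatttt
CD1A, chr1:158248086-158248335: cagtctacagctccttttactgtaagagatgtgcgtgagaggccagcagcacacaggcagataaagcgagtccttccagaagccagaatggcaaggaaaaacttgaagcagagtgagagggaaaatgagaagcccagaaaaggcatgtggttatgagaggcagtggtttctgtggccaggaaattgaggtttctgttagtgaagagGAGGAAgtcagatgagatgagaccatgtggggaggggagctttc
CD1C, chr1:158289673-158289785: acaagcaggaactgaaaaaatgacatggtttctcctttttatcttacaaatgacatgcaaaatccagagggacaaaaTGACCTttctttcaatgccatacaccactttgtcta

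In the 250 bases before its start at 158179947, CD1D held GAGGAA with its first base 125 bases upstream and AGGTCA 194 bases upstream. CD1A held GAGGAA 44 bases upstream of the RefSeq start at 158248336, which lies well before the start of the GENCODE gene at 158254137. CD1C held AGGTCA on the minus strand (read as TGACCT above) 173 bases before its RefSeq start at 158289923, and GAGGAA 129 bases before it, in bases not shown because GENCODE annotates them as exon. The other RefSeq starts of CD1D (158180895) and CD1A (158254424) had no match to either motif in the same window. All 250 bases of that CD1A window lie in GENCODE exon, and the bases just before the GENCODE start of CD1A were not searched. Of 35116 upstream windows of 250 bases in the table, 23.6% held GAGGAA and 12.1% held AGGTCA. No window searched for CD1A, CD1C, CD1D or CD1E held the Sp1 motif GGGCGG (42.6% of all windows) or TATAAA (10.7%). CD1B had no window and was not searched, and several of the windows lie partly or wholly in exon. The 2 pairs of matches did not overlap each other. These are letter matches in a window and not measured sites.

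CD1D was the most abundant member. Its counts were 2725 and 3087 in PIG-EMPTY replicates 1 and 2 and 2498 and 3230 in PIG-LONA replicates 1 and 2, which is 91.5, 95, 83.5 and 84.0 CPM (counts scaled to library totals adjusted by the TMM method). Both PIG-LONA libraries lay below both PIG-EMPTY libraries, by a margin that was small beside the level itself. Of all tested genes, 48% had groups that did not overlap, and in 24.4% both PIG-LONA libraries were the lower ones, so the same order in CD1A and CD1C is read against that share. The mean was 93.3 ± 2.5 CPM in PIG-EMPTY and 83.7 ± 0.38 CPM in PIG-LONA (SD, n = 2 in each). On the log2 scale PIG-LONA differed by -0.16 ± 0.04 (SE of the edgeR fit), which is 1.11-fold lower. The fit over all genes put this difference past its threshold of adjusted p under 0.05, but not when the first PIG-EMPTY library (-0.18) or the second (-0.13) was left out, when low counts were kept (-0.15) or in DESeq2 (-0.15).

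CD1A, the Langerhans cell marker, was counted 761 and 752 times in the PIG-EMPTY libraries, and 511 and 665 times with LONA. In CPM these were 25.6 and 23.2 against 17.1 and 17.3, so the groups were well apart and the PIG-LONA pair was nearly identical. The mean was 24.4 ± 1.7 CPM in PIG-EMPTY and 17.2 ± 0.16 CPM in PIG-LONA (SD, n = 2 per group). The log2 fold change was -0.50 ± 0.07, or 1.41-fold lower, and it lay between -0.43 and -0.57 when single libraries were left out.

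CD1C, the marker of conventional type 2 dendritic cells also known as BDCA1, was counted 467 and 465 times in the PIG-EMPTY libraries, and 267 and 433 times with LONA. These correspond to 15.7 and 14.3 CPM against 8.92 and 11.3 CPM. The groups did not overlap, and the PIG-LONA libraries differed more from each other than for the other expressed members. The mean was 15 ± 0.97 CPM in PIG-EMPTY and 10.1 ± 1.65 CPM in PIG-LONA (SD, n = 2 in each). The log2 difference was -0.55 ± 0.10, or 1.47-fold lower. Its size depended on which PIG-LONA library was kept, -0.41 without PIG-LONA replicate 1 and -0.75 without PIG-LONA replicate 2.

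**Figure D1:**
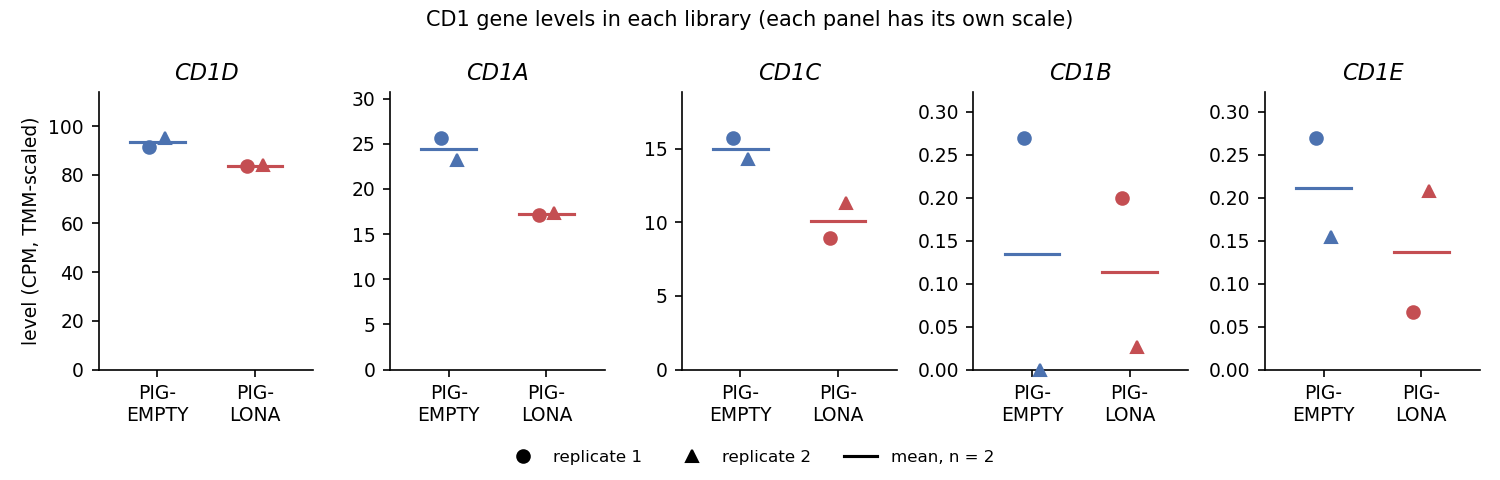
Level of each CD1 gene in the 4 libraries, in CPM on a linear axis from 0 that differs between panels, with circles for replicate 1, triangles for replicate 2 and lines for the group mean (n = 2). The 2 PIG-LONA points of CD1D, CD1A and CD1C all lie below the PIG-EMPTY points, whereas CD1B and CD1E stay under 0.3 CPM with overlapping groups; over all tested genes 24.4% have both PIG-LONA values below.

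CD1B and CD1E were at the edge of detection. CD1B, whose deep groove takes the longest lipids such as mycobacterial mycolates, had 8 and 0 counts with the empty vector and 6 and 1 with LONA. A count of 0 in PIG-EMPTY replicate 2 still allows a level of up to 0.0924 CPM (3 counts at that depth, for counting error only). CD1E had 8 and 5 counts with the empty vector and 2 and 8 with LONA. Neither passed the filter on low counts, their groups overlapped, and no fold change is given. At this depth no difference in CD1B or CD1E could have been detected unless it was large.

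The reads behind CD1B need care because the genes are close relatives. The transcripts of CD1A and CD1B share an exact run of 92 bases, all of it coding sequence in exon 4 of both (chr1:158256835-158256926 in CD1A and chr1:158329508-158329599 in CD1B, GRCh38), and it is printed because a read that falls wholly inside it cannot be assigned to 1 of the 2 genes.
Run shared by CD1A and CD1B: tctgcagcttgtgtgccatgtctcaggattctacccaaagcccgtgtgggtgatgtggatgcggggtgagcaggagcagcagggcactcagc

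That was the longest exact run between any 2 CD1 genes, followed by 88 bases for CD1B and CD1E and 80 for CD1A and CD1E. CD1D and CD1A shared at most 59 bases, CD1A and CD1C 21 and CD1D and CD1C 17. The 3 expressed genes share shorter exact runs with one another than CD1A does with CD1B, and no source used here gives the read length or the treatment of reads with several matches. The best local alignments of the longest transcripts were 71.4% identical for CD1D and CD1C over 695 columns, 71.4% for CD1A and CD1C over 1368 columns and 77.9% for CD1D and CD1A over 614 columns.

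Per kilobase of exon, the scale on which genes can be compared, the order was CD1D, then CD1A and CD1C, then CD1B and CD1E. CD1D stood at 41.4 ± 1.11 RPKM in PIG-EMPTY and 37.2 ± 0.17 RPKM in PIG-LONA (SD, n = 2 per group), above 91.8% and 90.6% of the tested protein-coding genes. CD1A stood at 11.6 ± 0.81 and 8.20 ± 0.07 RPKM, and CD1C at 10.5 ± 0.67 and 7.03 ± 1.15 RPKM. In each group the library values of CD1A and CD1C did not overlap but came close (12.2 and 11.0 against 10.9 and 9.98 RPKM in PIG-EMPTY, 8.15 and 8.25 against 6.22 and 7.85 RPKM in PIG-LONA). In PIG-EMPTY they exceeded 67.4% and 64.6% of the tested coding genes, and in PIG-LONA 58.0% and 53.5%. CD1B (0.0963 and 0.0812 RPKM) and CD1E (0.0959 and 0.0624 RPKM) overlapped between libraries.

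The make-up of the family is free of the scaling between libraries, because it compares genes within a library. CD1D took 68.7% of all CD1 counts in PIG-EMPTY replicate 1 (95% Wilson interval 67.2% to 70.1%) and 71.6% in replicate 2 (70.3% to 73.0%). In PIG-LONA its share was 76.1% (74.6% to 77.5%) and 74.5% (73.2% to 75.8%), higher in both libraries. The CD1A share was 19.2% and 17.5% in PIG-EMPTY, beside 15.6% and 15.3% with LONA. The CD1C share was 11.8% and 10.8%, beside 8.13% and 9.98%. CD1A counts per CD1D count were 0.279 and 0.244 with the empty vector beside 0.205 and 0.206 with LONA, and those of CD1C were 0.171 and 0.151 against 0.107 and 0.134. Neither ratio overlapped between the groups, but 48% of single tested genes did not overlap either, and no such share was computed for ratios. As a description of these libraries, the difference was larger in the 2 group 1 genes than in CD1D. The intervals cover counting error only. All 5 genes together made up 0.0133% of the counts in each PIG-EMPTY library and 0.0109% and 0.0113% in the PIG-LONA libraries.

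**Figure D2:**
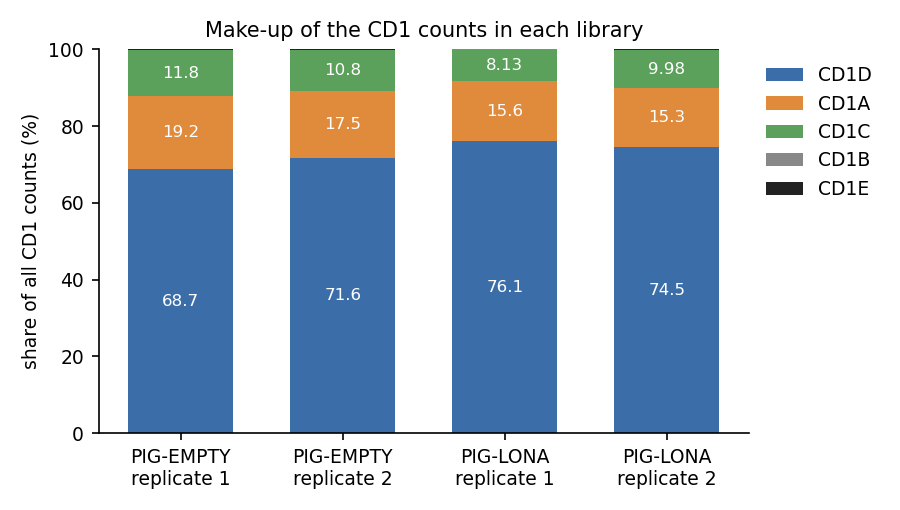
Share of each CD1 gene in the summed CD1 counts of a library, in percent, as stacked bars from 0 for the 4 libraries, with values printed for CD1D, CD1A and CD1C. The CD1D part is 68.7% and 71.6% with the empty vector, 76.1% and 74.5% with LONA, and CD1B and CD1E are too small to see.

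In the fit over all genes, 3 of the 3 tested CD1 genes were called lower in PIG-LONA and 0 higher, against 3.51% of all 15918 tested genes lower, 2.93% higher and 6.44% in either direction. The members were proposed with this contrast known, so nothing is read from that count. Their calls under other settings reuse the same 4 libraries and are likewise a description only. Their median log2 fold change was -0.50, beside 0.00 over all tested genes. CD1A was called under each of the 12 other settings tried, CD1C under 11 and CD1D under 8, as the plot of settings shows. The only setting under which CD1C lost its call was the absence of a low-count filter, which also left 1 CD1 gene called, CD1A.

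**Figure D3:**
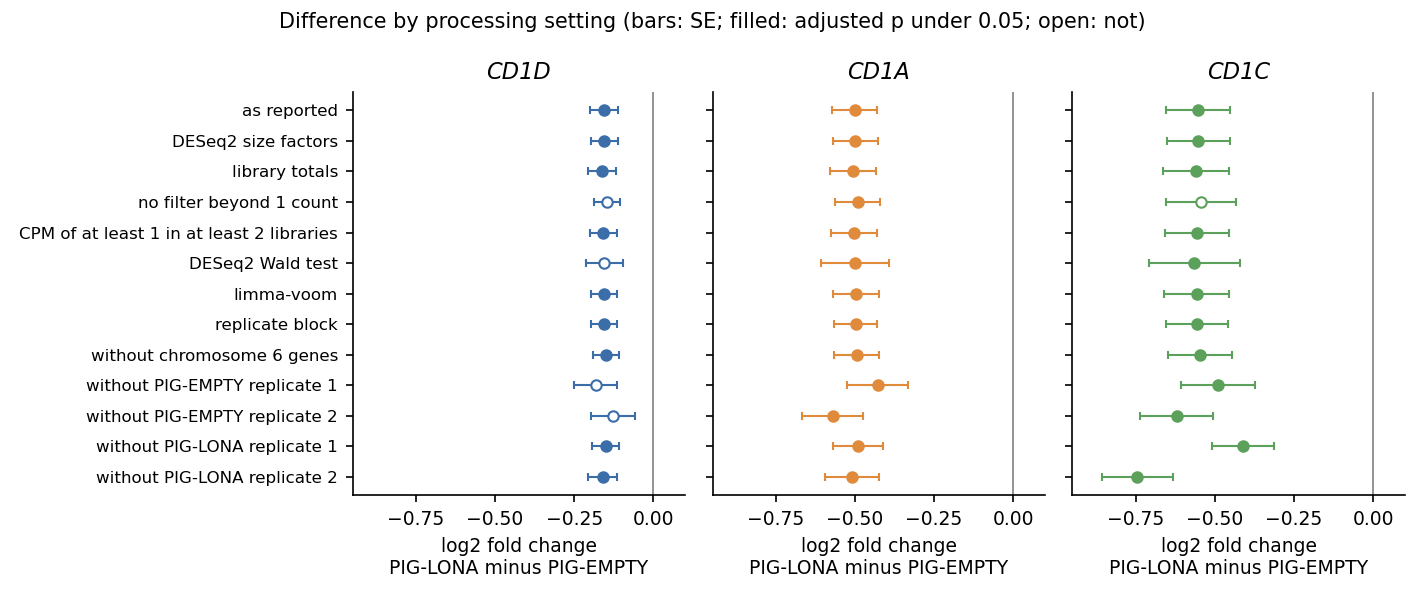
Log2 fold change (PIG-LONA minus PIG-EMPTY) of CD1D, CD1A and CD1C under the reported setting and 12 others, with bars for the standard error and filled points where adjusted p was under 0.05. All points lie below 0, those of CD1D between -0.13 and -0.18, and 4 of its 12 other settings are open.

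Genes with the profile most like that of CD1D or CD1A over the 4 libraries were sought by the smallest Euclidean distance between centred log2 CPM values. For CD1D these were KCNN2, ACAD8 and GMPR2 (distances 0.0107, 0.0114 and 0.0134), and for CD1A TGFBI, ENSG00000225339 and GGACT (0.0355, 0.0493 and 0.051). TGFBI, which encodes a matrix protein induced by TGF-beta, had 13.3 and 12 CPM in PIG-EMPTY and 9.02 and 9.26 CPM in PIG-LONA. Within the family, CD1A and CD1C were nearest to each other (0.238), and CD1D lay farther from CD1A (0.373) and from CD1C (0.50). The distances are a description over the same 4 libraries. Their log2 scale (prior count 0.5) was set after a first run on log2(CPM + 0.5) had been seen, and the names depend on it. The first run named MILIP, ACAD8 and KCNN2 for CD1D and FCGR1CP, ATG9B and TGFBI for CD1A, so that ACAD8, KCNN2 and TGFBI were named by both runs.

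The genes around the cluster were compared next, to see whether the CD1 genes share their difference with other genes at the same place. GENCODE lists 64 other genes within 1 Mb on either side, 24 of them had any count, and 8 could be tested. Of these 8, 2 were lower, 0 higher and 6 did not pass, beside 3.51% lower and 2.93% higher among all tested genes. The median log2 fold change of the 8 was 0.03, and every positive value came from a gene with at most 30 counts in any library. KIRREL1, an adhesion molecule of the nephrin family on the CD1D side of the cluster, had 21.4 and 25.6 CPM in PIG-EMPTY against 16.6 and 17.7 CPM in PIG-LONA (-0.45 ± 0.08, edgeR adjusted p = 0.00124). IFI16, a DNA sensor gene, had 118 and 128 CPM in PIG-EMPTY against 101 and 107 CPM (-0.24 ± 0.05, edgeR adjusted p = 0.00288). Leaving out the second PIG-EMPTY library ended both calls, as did keeping low counts.

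MNDA, a myeloid nuclear antigen gene of the same family as IFI16, had 252 and 258 CPM in PIG-EMPTY against 251 and 243 CPM in PIG-LONA and did not pass (-0.05 ± 0.04, edgeR adjusted p = 0.544). AIM2, the inflammasome sensor, stood at 1.58 and 0.893 against 0.869 and 0.598 CPM (-0.77 ± 0.32, edgeR adjusted p = 0.195). Next to or inside the cluster, the pseudogenes ELL2P1 (1.26 ± 0.52) and AL138899.2 (0.25 ± 0.43) and the noncoding gene AL138899.1 (0.11 ± 0.40) had at most 22 counts in any library and did not pass, nor did FCRL1 (0.28 ± 0.35). KIRREL1, IFI16, MNDA and AIM2 each had both PIG-LONA libraries below both PIG-EMPTY libraries, as 24.4% of all tested genes did. Of these, KIRREL1 and IFI16 were called lower, and MNDA and AIM2 did not pass.

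**Figure D4:**
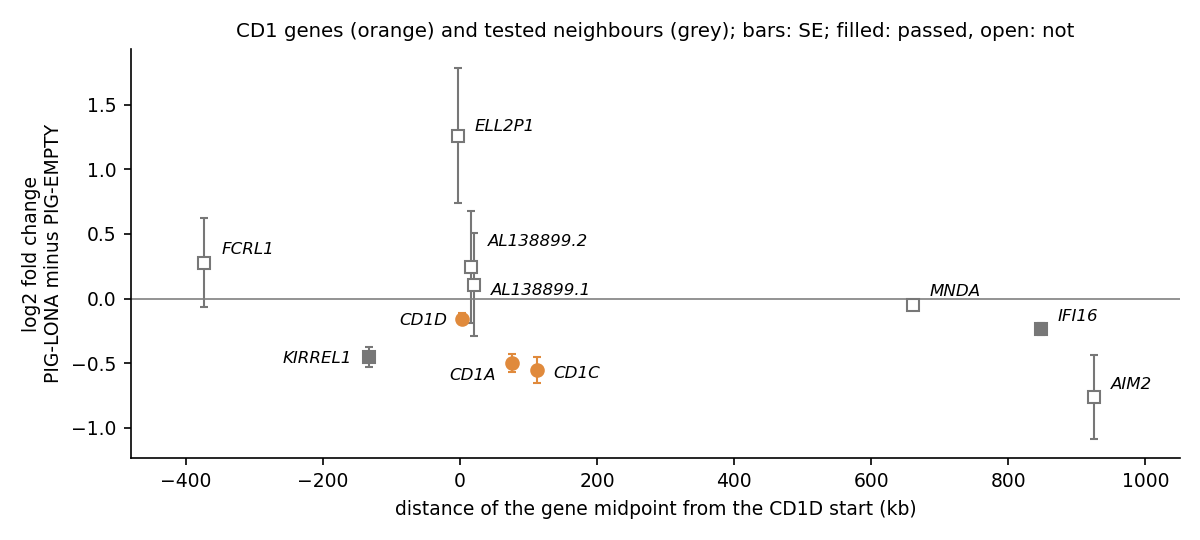
Log2 fold change (PIG-LONA minus PIG-EMPTY, bars for the standard error) against the distance of the gene midpoint from the CD1D start in kb, for the 3 tested CD1 genes (circles) and 8 tested neighbours (squares), filled where adjusted p was under 0.05. CD1A and CD1C sit near -0.5, KIRREL1 at -0.45, and MNDA near 0.

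Surface CD1 needs partners, and 74 genes were grouped into 4 lists of partners and regulators and 1 list of MHC class I-like relatives, of which 65 were tested. In all, 10 were lower and 3 higher, with a median log2 fold change of -0.03, and the relatives gave 2 of the lower and 2 of the higher calls. Over all 15918 tested genes, 3.51% were lower and 2.93% higher, and the counts of each list are to be read beside those shares. Among the genes that process lipids and load them, 4 of 18 tested members were lower and 0 higher, with a median of -0.09. CTSL and CTSS, the lysosomal cathepsins that also act on the class II pathway, were lower, at -0.30 ± 0.06 (31.8 and 31.6 against 26.2 and 25.3 CPM, edgeR adjusted p = 0.00319) and at -0.27 ± 0.05 (96.6 and 94.7 against 75.1 and 83.7 CPM, edgeR adjusted p = 0.00161).

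PSAP, the precursor of the saposins that lift lipids into the CD1 groove, had 213 and 215 CPM in PIG-EMPTY and 197 and 193 CPM in PIG-LONA (-0.14 ± 0.04, edgeR adjusted p = 0.028). PLA2G15, a lysosomal phospholipase, had 39.8 and 42.2 against 35.2 and 35.4 CPM (-0.22 ± 0.05, edgeR adjusted p = 0.0187). DESeq2, leaving out the second PIG-EMPTY library and keeping low counts each ended both calls, and leaving out the first ended that of PSAP too. MTTP, the microsomal transfer protein that lipidates CD1 in the endoplasmic reticulum, had at most 2 counts in any library. The count of lower genes in this group was 2 in DESeq2, 2 with the second PIG-EMPTY library left out and 1 with low counts kept.

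B2M, which encodes the beta-2 microglobulin that all surface CD1 heavy chains share with MHC class I, had 329 and 329 CPM in PIG-EMPTY and 308 and 310 CPM in PIG-LONA and did not pass (-0.09 ± 0.03, edgeR adjusted p = 0.157). With either PIG-LONA library left out, its difference was of similar size (-0.08 and -0.09). Of 7 tested genes in this group, 1 was higher and 0 lower, with a median of -0.05, beside 2.93% higher and 3.51% lower among all tested genes. The higher one was TAPBP, which encodes tapasin, a chaperone of peptide loading (0.19 ± 0.04, edgeR adjusted p = 0.00625). TAPBP lies on chromosome 6, whose tested genes had a median log2 fold change of 0.17, and leaving out the second PIG-EMPTY library or keeping low counts ended its call. Without PIG-LONA replicate 1, when the spread came from the PIG-EMPTY pair alone, calls in this group rose in both directions, as they did over all genes.

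Of 21 trafficking genes, among them the AP-2 and AP-3 adaptors that recycle CD1 molecules through endosomes, 0 were called in either direction in edgeR and 0 lower or higher in DESeq2, and the median was -0.01. At an unadjusted p under 0.05 in edgeR, 2 were lower and 0 higher. The 2 most abundant, CLTC (clathrin heavy chain, 656 and 670 against 642 and 686 CPM) and AP2M1 (344 and 338 against 327 and 321 CPM), had log2 fold changes of 0.00 ± 0.04 and -0.07 ± 0.04. Without PIG-LONA replicate 1, when the spread came from the PIG-EMPTY pair alone, calls of lower genes rose in this list, as they did over all genes.

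Transcription factors that have been tied to CD1 promoters included 4 lower and 0 higher among 10 tested, with a median of -0.05. Among all tested genes, 3.51% were lower and 2.93% higher. Whether these factors act on the CD1 genes in this line was not tested. PPARG, the nuclear receptor that raises CD1D and lowers CD1A in differentiating dendritic cells, had 17.9 and 19.6 CPM in PIG-EMPTY and 14.3 and 13.2 CPM in PIG-LONA (-0.46 ± 0.08, edgeR adjusted p = 0.00101). CEBPB, a C/EBP factor of monocytes, was lower, at -0.39 ± 0.08 (edgeR adjusted p = 0.00294), and ETS1, an ETS factor, at -0.30 ± 0.05 (edgeR adjusted p = 0.000852). SPI1, which encodes PU.1, had 224 and 228 against 210 and 202 CPM (-0.13 ± 0.04, edgeR adjusted p = 0.0346), and 5 of 12 other settings did not call it, among them both fits that left out a PIG-EMPTY library.

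RARA, the retinoic acid receptor, had 94.0 and 89.8 against 90.4 and 84.1 CPM and did not pass (-0.08 ± 0.05, edgeR adjusted p = 0.414), and it was at -0.13 without PIG-LONA replicate 1. LEF1 and IRF4 had at most 2 counts in any library. CEBPB was at -0.21 without PIG-LONA replicate 2 and -0.57 without PIG-LONA replicate 1, and was not called in DESeq2 or with low counts kept, so that 2 of the 4 lower factors, PPARG and ETS1, were called under each of the 12 other settings.

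CD1 molecules have other MHC class I-like relatives. Of 9 tested, 2 were lower, 2 higher and 5 did not pass, beside 3.51% lower and 2.93% higher among all tested genes. On chromosome 6, 2 of 6 tested (MICA, 0.43 ± 0.09, edgeR adjusted p = 0.0033, and ULBP3, 0.50 ± 0.15, edgeR adjusted p = 0.044) were higher and 0 lower, with a median of 0.40 beside 0.17 for all tested genes of that chromosome. MICA and ULBP3 are ligands of the NKG2D receptor and have close relatives in the genome; how far reads are shared between them was not measured. Without PIG-EMPTY replicate 2, ULBP3 was at 0.31 and not called. On other chromosomes, 2 of 3 were lower.

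MR1, which presents vitamin B metabolites to MAIT cells and lies on chromosome 1, had 35.5 and 33.5 CPM in PIG-EMPTY against 30.1 and 28.6 CPM in PIG-LONA (-0.24 ± 0.06, edgeR adjusted p = 0.0174). PROCR, the CD1-like protein C receptor that binds a phospholipid in its groove, had 4.94 and 5.08 against 3.01 and 2.91 CPM (-0.76 ± 0.15, edgeR adjusted p = 0.00269). The third, the neonatal Fc receptor gene FCGRT, was not past the threshold at -0.15 ± 0.05 (edgeR adjusted p = 0.0526). MR1 was not called in 4 of 12 other settings, among them the fits that left out the first PIG-EMPTY or the second PIG-LONA library, and ULBP3 was not called in 5 of its 11.

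The label of a myeloid leukaemia line held against the markers. PTPRC (CD45), CD33, ANPEP (CD13), SPI1, CEBPA, AZU1, ELANE, PRTN3 and HOXA9 were all abundant, MPO was low (2.10 to 2.79 CPM) and KIT had at most 2 counts. Markers of T and B cells were near 0. All 12 T cell and thymocyte markers summed to between 0.302 and 0.546 CPM per library, with at most 9 counts for any gene and 0 in all libraries for CD3D, CD3E, CD3G, CD2 and CD8B. The 9 B cell markers summed to 1.88 to 2.35 CPM, with MS4A1 and BLK at 0 and CD79A and FCRL1 highest at up to 27 and 30 counts.

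Erythroid markers had at most 1 count, and epithelial and fibroblast markers summed to 0.907 to 1.22 CPM. Of the natural killer list, NCAM1, which encodes CD56, was abundant at 241, 241, 246 and 262 CPM (0.08 ± 0.04, edgeR adjusted p = 0.305, not passed), while KLRD1 and KLRB1 were at 0 and PRF1 had at most 1 count.

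Dendritic cell markers, the usual company of CD1A and CD1C, were patchy. Of 23 listed, 11 were tested, 3 were lower and 1 higher, with a median of -0.18, beside 3.51% lower and 2.93% higher among all tested genes. The list summed to 262 and 260 CPM in PIG-EMPTY and 250 and 247 CPM in PIG-LONA, mostly from SIRPA. XCR1, CCR7, CCL17 and CD80 were at 0 in all libraries, and FCER1A, LAMP3 and CD207 had at most 3 counts. IL3RA was listed at 0 but lies in a region shared by X and Y where reads may not be assigned. Among the 7 tested members that did not pass, BATF3 had 17.1 and 15.9 CPM in PIG-EMPTY against 16.9 and 15.3 CPM in PIG-LONA (-0.04 ± 0.08). CD83 (0.08 ± 0.09) and CD40 (-0.12 ± 0.10) did not pass either, at 13.9 to 18.0 and 7.72 to 9.20 CPM. CLEC10A, which with CD1C marks conventional type 2 dendritic cells, had 1.18 and 1.02 CPM in PIG-EMPTY and 0.434 and 0.728 CPM in PIG-LONA and did not pass (-0.86 ± 0.32, edgeR adjusted p = 0.126).

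ITGAX, which encodes CD11c, was lower, at -0.60 ± 0.13 (6.04 and 6.25 against 4.21 and 3.93 CPM, edgeR adjusted p = 0.00653, not called in DESeq2), and CADM1, an adhesion gene of cross-presenting dendritic cells, at -1.46 ± 0.22 (edgeR adjusted p = 0.000241). SIRPA was lower, at -0.18 ± 0.04 (edgeR adjusted p = 0.00544), a call that ended when either PIG-EMPTY library was left out. FLT3, the receptor that drives dendritic cell development and is carried by leukaemic progenitors, was higher (37.0 and 37.5 against 49.4 and 51.5 CPM, 0.44 ± 0.05, edgeR adjusted p = 2.04e-05).

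Most tested monocyte and macrophage markers were lower, as the 3 expressed CD1 genes were. Of 17 listed, 13 were tested, 11 were lower and 0 higher, with a median of -0.68, beside 3.51% lower and 2.93% higher among all tested genes. Their summed level was 494 and 494 CPM in PIG-EMPTY against 298 and 311 CPM in PIG-LONA. CD163, the haemoglobin scavenger receptor, was at -1.05 ± 0.08 and VCAN, a proteoglycan gene, at -0.74 ± 0.05, both larger than the differences of CD1A and CD1C. S100A12 (0.00 ± 0.39, edgeR adjusted p = 1) and MARCO (-0.64 ± 0.24, edgeR adjusted p = 0.134) did not pass. MSR1 was at 0 and FCGR3A and MRC1 had at most 1 count. This list was already known to be lower in these libraries and is no independent evidence. Its part in the CD1 differences was not tested, and in bulk RNA fewer cells that carry CD1 transcripts and less transcript per cell cannot be told apart.

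**Figure D5:**
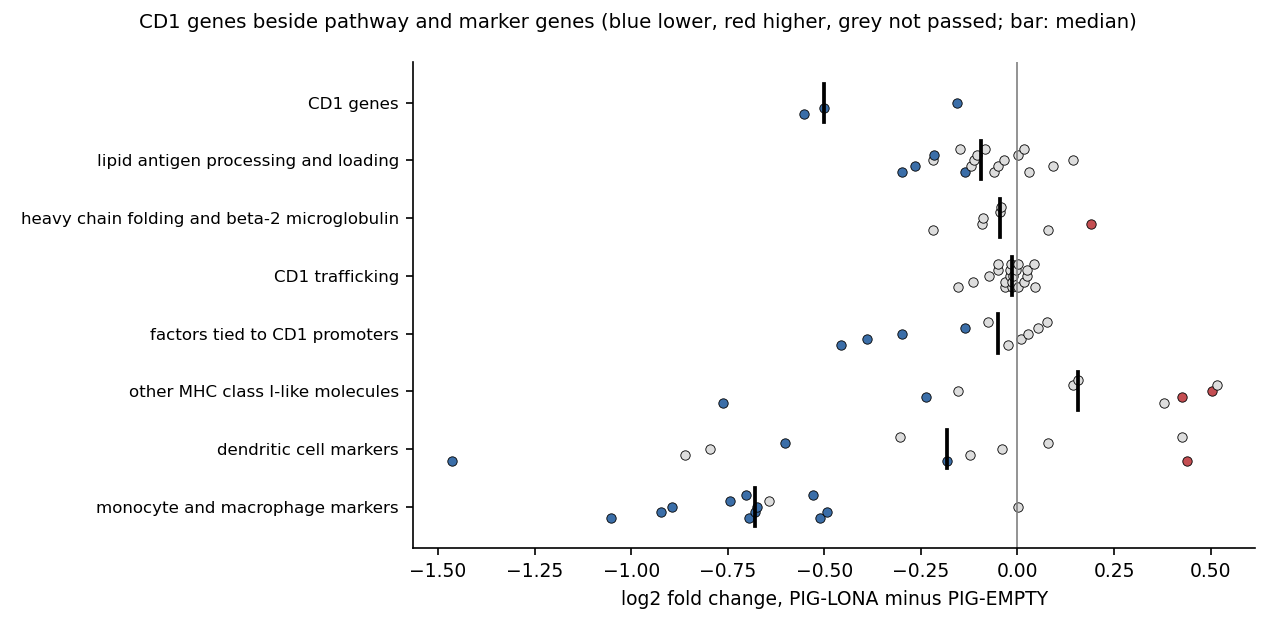
Log2 fold change (PIG-LONA minus PIG-EMPTY) of each tested gene in the CD1 family and 7 lists, with blue for lower and red for higher at adjusted p under 0.05, grey for not passed and a bar at the median. The medians are -0.50 for the CD1 genes, -0.01 for trafficking genes and -0.68 for monocyte and macrophage markers.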

How the data were processed

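Directional libraries were made from poly(A) RNA of 4 transduced OCI-AML3 cultures, per the labels' protocols. The authors deposited unnormalised counts for each Ensembl gene, 1 column per library, with totals of 29819572 and 32350832 (PIG-EMPTY) and 30181550 and 38358442 (PIG-LONA). FastQC 0.11.4, STAR 2.5, HTSeq and hg38 are named in the submitters' processing notes; strand setting, annotation release and read length: not given in the sources used here. Replicates differed by more than counting noise (chi-square per gene of 1.77 and 4.32), so each was kept.

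Counts were analysed with edgeR 4.0.16 in R 4.3.3: filterByExpr (minimum count 10, minimum total 15), TMM scaling, then glmQLFit and glmQLFTest for the group term (two-sided); p-values were Benjamini-Hochberg adjusted across the whole tested table and called at 0.05. A gene counted as expressed when it passed that filter. RPKM is CPM per kilobase of GENCODE 29 exon. Profiles were compared on log2 CPM with a prior count of 0.5, a setting changed after a first run had been seen, and those most like CD1C are not reported here; motifs were chosen with the sequences in view. Tested on simulated data for this comparison, the fit recovered 58% of genes changed 1.2-fold and 78% of those changed 1.5-fold. Of its calls there, 6.36% were false. The simulation gave both groups the same spread and changed no genes of low count. Alternatives were DESeq2 1.42.0 (test and size factors), limma-voom (limma 3.58.1), library totals, 2 other filters, a replicate block, chromosome 6 left out and each library left out.

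The members and lists were chosen with earlier results of these data known. From each list up to 4 called genes with the smallest p were named, or the 2 most abundant where none was called, besides B2M, PSAP, MTTP, SPI1, PPARG, RARA, MR1, all tested neighbours and, of markers of other cell types, those with any count, not all of which are reported here. SIRPA, FLT3 and MNDA also follow that rule. FCGRT, CLEC10A, KIT, BATF3, CD83, CD40, CD86, ZBTB46, CCL22, CLEC9A, CD209, CLEC4C and LILRA4 were named after their values were seen.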

Additional observations from a re-analysis of the deposited data

How the results depend on the processing

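With 2 libraries per group, the call of a small difference rests on few degrees of freedom. CD1D kept its direction throughout, at -0.147 (log2) with low counts kept and -0.155 in the DESeq2 Wald test, both no longer past the threshold, and from -0.127 to -0.181 when single libraries were left out. CD1C was at -0.543, not past it, without the filter. CD1 genes called lower numbered 1 without the filter, and 5 CD1 genes counted as expressed when 1 count was enough. Pathway genes called lower were 4 without the filter, 5 in DESeq2 and from 7 to 20 with single libraries left out (20 without PIG-LONA replicate 1), against 10. Those called higher were 1 without the filter, 0 without chromosome 6 genes and from 1 to 7 with single libraries left out (7 without PIG-LONA replicate 1, 1 without PIG-EMPTY replicate 2), against 3. Lower neighbours were 0 without the filter and from 0 to 2 with single libraries left out. Over all genes, 558 were lower and 467 higher; these were 194 and 140 without the filter, 254 and 219 in DESeq2, 219 higher without chromosome 6 genes, and from 309 to 1109 lower and from 157 to 1222 higher with single libraries left out. The cause was not tested. With a PIG-LONA library left out, the spread came from the PIG-EMPTY pair alone, whose replicates differed less (chi-square per gene of 1.77 against 4.32). Of 417 values of the 35 other named genes, 372 kept direction and side of the threshold and 0 reversed. Replicate numbers are shared by the groups, but the differences between replicates hardly correlated (r = 0.0663 across 13191 genes, which are not independent replicates). That weak correlation cannot exclude that the samples were handled in pairs, so a fit with a replicate block was run beside the main one. With a replicate block, CD1D was at -0.156, CD1A at -0.497 and CD1C at -0.556, 12 pathway genes were lower, and 603 and 498 of all genes were lower and higher.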
